A study of Mus musculus with 2 samples.

Results

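The 10 genes examined here encode the main effector cytokines and death ligands that T and NK cells make: Ifng, Tnf, Fasl, Tnfsf10, Lta, Ltb, Csf2, Il2, Il17a and Il22. They were chosen by name for that function, with earlier results of these data known, and all 10 were found among the 27998 genes of the count tables. The scRNAseq data came from mCD45+ (mouse CD45-positive) cells sorted from subcutaneous B16 melanomas, a mouse tumor line, and asked what occurred among immune cells of the tumor microenvironment (TME) when LAIR1, an inhibitory collagen receptor, was blocked. The mice were C57BL/6J animals 6 to 8 weeks old that lacked mouse LAIR1 and carried human LAIR1 switched on by Vav-cre, so that the human receptor was expressed across blood cell lineages; both groups shared these alleles. One group received h219-LLG, a humanized anti-LAIR1 antibody, and the other an isotype control antibody, both at 10 mg/kg in 3 doses given every 4 days from day 5 after 500000 B16 cells were injected, with the experiment ending on day 16. There was 1 library per condition, so the values below compare 2 libraries and carry no test of the antibody; the labels and methods do not say how many mice each library pools.

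Interferon gamma, encoded by Ifng, is the signature cytokine of NK cells, T helper 1 cells and cytotoxic CD8 T cells, and acts through the Ifngr1 and Ifngr2 receptor chains. Tnf, Lta, Ltb, Fasl and Tnfsf10 belong to the TNF superfamily: Tnf signals inflammation through TNF receptors, Fasl and Tnfsf10 (TRAIL) engage death receptors, and Ltb forms with Lta the membrane lymphotoxin that organizes lymphoid tissue through Ltbr. Csf2 encodes GM-CSF, which acts on myeloid cells, Il2 the growth factor of T cells, and Il17a and Il22 the cytokines of type 17 and type 22 lymphocytes that act mostly on epithelium and other non-immune cells.

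A level is given as the gene's molecules, counted by their molecular tags (UMIs), divided by all UMIs of the class and scaled to counts per 1000000 (CPM), and a ratio is the h219-LLG level divided by the control level with a 95% interval. The intervals cover counting error only and say nothing of the spread between mice or libraries. The h219-LLG library held 8807 barcodes and 48834592 UMIs, and the control library 6133 barcodes and 40339654 UMIs. After filtering and removal of 442 and 252 suspected doublets, 6991 and 5355 cells were kept, with a median of 4920 and 5692 UMIs, and 7 of the kept barcodes occurred in both libraries. Before filtering, 15.2% of h219-LLG barcodes and 8.17% of control barcodes had at least 10% mitochondrial UMIs, and the part of this difference in any result was not tested. Cell classes were set by marker gates on raw UMIs that used none of the 10 genes, and "experienced" and "naive" are names of gates, not of an authors' annotation. NK cells numbered 92 and 145, all T cells 3407 and 2605, B cells 2249 and 1674, and monocytes or macrophages 473 and 299. Genes kept out of the gates matched the NK and B classes: Klre1 was found in 84.8% and 86.9% of NK cells, and Ebf1 in 98.9% and 99.6% of B cells.

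Positions are given on mm10, and flanking sequence is shown for Ltb, the member found in most cells, beside members with a match close to their start. Ltb (ENSMUSG00000024399, chr17:35194439-35196320, plus strand), Tnf (chr17:35199381-35202007, minus strand) and Lta (chr17:35203165-35205351, minus strand) form 1 cluster, with 3060 bases between Ltb and Tnf and 1157 between Tnf and Lta. Il22 (chr10:118204942-118210047, plus strand) and Ifng (ENSMUSG00000055170, chr10:118441046-118445892, plus strand) lie on 1 chromosome with 230998 bases between them. Fasl (chr1:161780689-161788495, minus strand), Il17a (chr1:20730905-20734496, plus strand), Tnfsf10 (chr3:27317028-27342427, plus strand), Il2 (chr3:37120523-37125959, minus strand) and Csf2 (chr11:54247271-54249667, minus strand) stand apart from these. Csf2 overlaps the antisense gene Gm12223 and Il2 overlaps Adad1 on the opposite strand, and how strand was used in counting is not stated, so reads of such pairs may be shared. The sequences are RefSeq promoters of GRCm38.p6, searched on both strands for GGNNTTTCC (NF-kB), TGA and TCA parted by any base (AP-1), GGAAAA (NFAT) and TATAAA (the core promoter box), with matches in capitals; the Ltb and Il2 sequences stop where an annotated transcript begins.
Ltb: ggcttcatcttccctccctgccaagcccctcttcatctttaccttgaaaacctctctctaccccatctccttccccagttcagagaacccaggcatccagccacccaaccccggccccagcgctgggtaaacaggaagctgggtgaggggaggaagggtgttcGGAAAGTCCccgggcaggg
Tnf: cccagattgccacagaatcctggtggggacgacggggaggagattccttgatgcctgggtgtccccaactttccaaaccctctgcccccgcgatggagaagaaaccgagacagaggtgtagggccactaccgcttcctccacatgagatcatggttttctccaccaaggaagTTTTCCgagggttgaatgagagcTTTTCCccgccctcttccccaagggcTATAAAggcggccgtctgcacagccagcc
Ifng: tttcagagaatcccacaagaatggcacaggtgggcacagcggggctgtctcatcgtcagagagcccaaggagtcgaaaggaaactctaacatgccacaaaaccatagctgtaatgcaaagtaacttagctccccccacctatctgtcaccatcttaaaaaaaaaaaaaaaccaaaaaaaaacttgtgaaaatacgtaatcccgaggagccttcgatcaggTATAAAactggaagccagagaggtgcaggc
Il2: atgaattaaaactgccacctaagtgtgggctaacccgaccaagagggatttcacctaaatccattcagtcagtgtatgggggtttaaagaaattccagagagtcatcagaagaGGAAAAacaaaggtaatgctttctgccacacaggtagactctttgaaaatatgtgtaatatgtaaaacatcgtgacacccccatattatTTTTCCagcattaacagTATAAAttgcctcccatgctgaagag
Il17a: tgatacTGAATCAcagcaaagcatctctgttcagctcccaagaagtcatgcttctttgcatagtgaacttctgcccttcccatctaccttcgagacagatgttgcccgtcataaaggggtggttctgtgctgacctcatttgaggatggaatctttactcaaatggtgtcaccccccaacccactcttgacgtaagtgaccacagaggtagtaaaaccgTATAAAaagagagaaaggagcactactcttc
The printed stretches are chr17:35194257-35194438 on the plus strand for Ltb, chr17:35202008-35202257 on the minus strand for Tnf, chr10:118440796-118441045 on the plus strand for Ifng, chr3:37125960-37126204 on the minus strand for Il2 and chr1:20730655-20730904 on the plus strand for Il17a. TATAAA stood 31 to 26 bases before the RefSeq start in Il17a and Il2, 30 to 25 in Ifng and 29 to 24 in Tnf, and farther out in Il22 (170 to 165) and Lta (167 to 162). At any place in the window 6 of the 10 members and 12.4% of 32851 promoters held it. For Ltb and Il2 the RefSeq start lies inside the annotated gene, so counts from it differ from counts from the end of the printed stretch. The RefSeq starts of Il22 and Tnfsf10 also lie inside the annotated gene. For Csf2 the searched stretch (chr11:54249900-54250149, minus strand) lies wholly upstream of the annotated gene, whose start is at 54249667. The bases between were not searched, so motifs close to the annotated Csf2 start are not counted. In the stretches searched, Ltb alone of the 10 held the NF-kB letters, 87 to 79 bases before its RefSeq start, against 4.93% of all promoters. GGAAAA was found in Fasl, Il2 and Tnf (20.4% of promoters) and the AP-1 letters in Il17a (6.75%). A match is a description of letters and says nothing about which factor bound in these cells.

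Cytokine messages are known for the pentamer ATTTA behind the coding region, a sequence that marks short-lived mRNA. Up to 30 bases with the densest run are shown for the 4 genes in which it is best known, with each pentamer in capitals.
Csf2: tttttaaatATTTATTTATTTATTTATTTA
Tnf: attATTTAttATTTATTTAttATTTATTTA
Il2: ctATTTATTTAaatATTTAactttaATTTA
Ifng: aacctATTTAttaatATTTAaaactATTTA
Csf2 held 9 pentamers behind its stop codon (28.4 per 1000 bases), Tnf 8 (10.5), Il2 7 (12.0), Il17a 7 (11.0), Il22 6 (11.5) and Ifng 6 (9.51). Lta had 3, Fasl 1 and Ltb none, while Tnfsf10 had 8 in a longer tail (2.00 per 1000 bases). Over 20726 genes the median was 1 pentamer and 34.7% had none. Ltb, the member with none, was also the 1 member found in most cells of both libraries. Any relation between the pentamers and the number of cells with a gene was not tested.

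**Figure D1:**
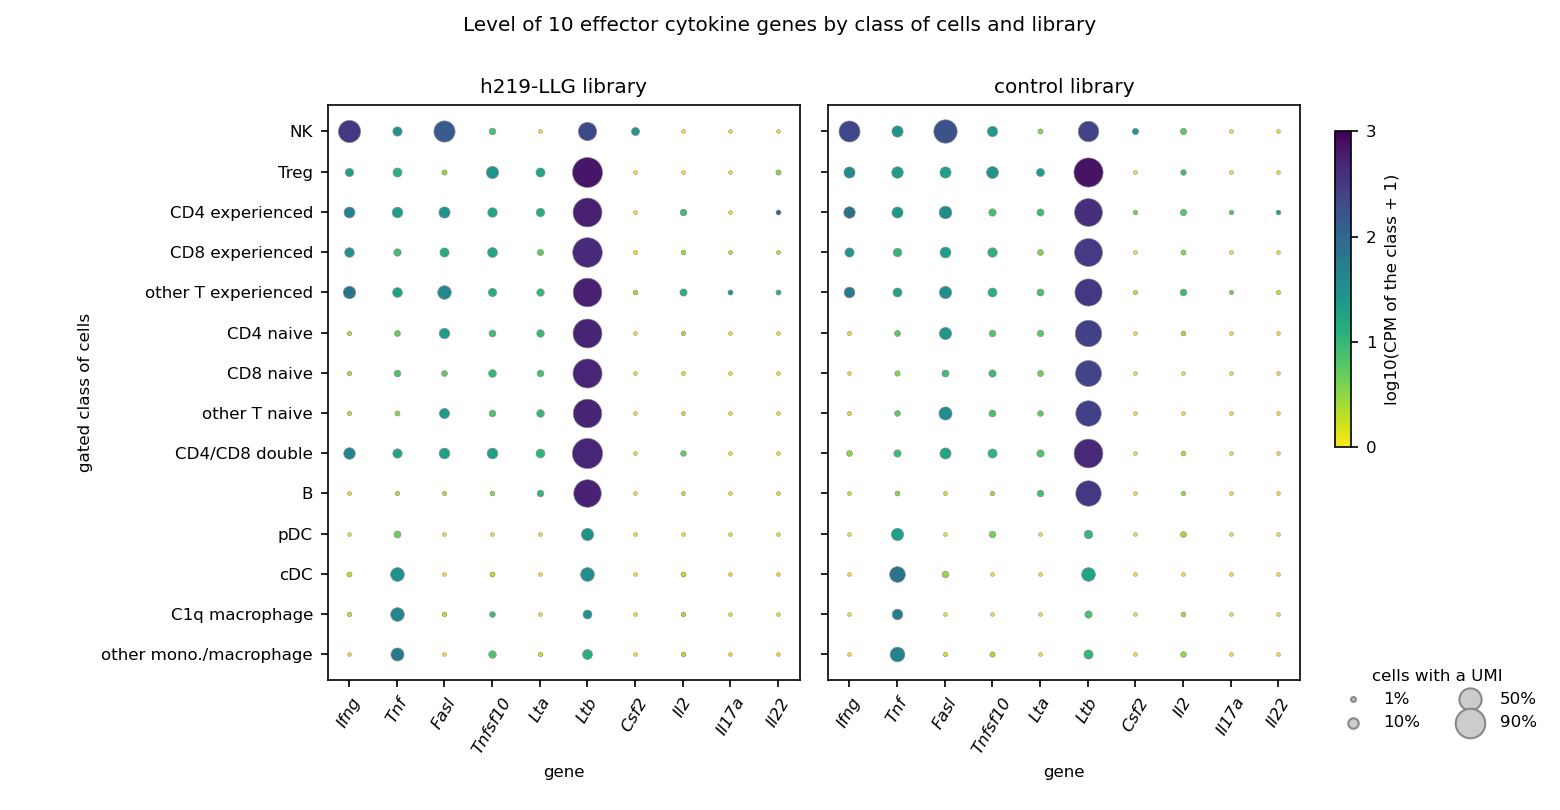
Level of the 10 genes (columns) in 14 gated classes of cells (vertical axis), h219-LLG at left and control at right; colour gives log10(CPM of the class + 1) and the area of a circle the percentage of cells with a UMI. Ltb fills the T and B rows of both panels, Ifng and Fasl are darkest in NK cells, and Tnf extends to the myeloid classes.

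Ltb, the lymphotoxin beta chain, was the most widely detected of the 10 genes and the one whose level differed between the libraries in most classes. In all kept cells its level was 387 CPM with h219-LLG and 266 CPM in the control, a ratio of 1.45 (1.42 to 1.49), and 74.4% against 63.2% of cells held a UMI of it. With each cell thinned to 1000 UMIs these shares were 33.8% and 23.0%, so the h219-LLG library was higher although its cells were read less deeply. The ratio was over 1 in 11 of the 13 classes with enough UMIs, and its interval lay above 1 in 8 of them.

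Naive T cells had the largest Ltb ratios among the T classes. CD8 naive cells held 494 CPM with h219-LLG and 248 CPM in the control, a ratio of 1.99 (1.82 to 2.18), with a UMI in 87.0% and 69.2% of cells (37.6% and 21.3% thinned). CD4 naive cells held 505 and 267 CPM, a ratio of 1.89 (1.73 to 2.07), with shares of 86.1% and 71.4% (38.3% and 21.7% thinned). T cells with neither Cd4 nor Cd8 UMIs in the naive gate held 501 and 270 CPM, a ratio of 1.86. The 3 naive gates therefore sat together within each library, at 494 to 505 CPM with h219-LLG and at 248 to 270 CPM in the control. Ltb was 1 of the 2 members with at least 50 UMIs in CD8 naive cells and the 1 of them at or above 1.5-fold, where 9.36% of all genes were that high; the same held in CD4 naive cells, where 8.35% were.

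Experienced T cells had smaller Ltb ratios. CD4 experienced cells held 551 CPM with h219-LLG and 391 CPM in the control, a ratio of 1.41 (1.28 to 1.55). CD8 experienced cells held 439 and 301 CPM, a ratio of 1.46 (1.38 to 1.55), with a UMI in 90.4% and 79.9% of cells (35.4% and 25.2% thinned); in cells thinned before gating, which leaves 77 and 42 of them, the ratio was 1.04 (0.617 to 1.81). Regulatory T cells (Foxp3-positive) had the highest level of the larger classes, 682 and 713 CPM with a ratio of 0.956, and NK cells the lowest among lymphocytes, 218.7 and 245 CPM with a ratio of 0.893 (0.699 to 1.13). In the control library the naive gates had the lowest levels among T cells, with counting intervals that overlapped that of NK cells, whereas with h219-LLG they lay above CD8 experienced cells, with intervals that overlapped that of CD4 experienced cells.

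B cells shared the Ltb difference. They gave 4496 UMIs with h219-LLG and 2452 in the control, 530 and 328 CPM, a ratio of 1.61 (1.54 to 1.70), with a UMI in 40% and 26.5% of cells after thinning. Of all genes in B cells, 7.1% were at least 1.5-fold higher with h219-LLG, and Ltb was the 1 of 2 measured members to pass. In T cells 3 B genes kept out of the gates summed to 10.6 and 2.88 CPM in CD4 experienced cells and 6.49 and 2.24 CPM in CD4 naive cells, against 2564 and 2798 CPM in B cells. Barcodes that failed the filter also differed in Ltb, with 304 CPM in the h219-LLG library and 119 CPM in the control, and unassigned barcodes held 335 and 119 CPM (ratio 2.82). In monocytes or macrophages Ltb was low, 16.4 and 8.98 CPM with a UMI in 8.25% and 6.35% of cells, and in C1q macrophages 23 of its 35 h219-LLG UMIs came from 1 cell, so the ratio there was 4.30 with and 1.95 without the highest cell of each library.

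Lta, the soluble partner of Ltb, was far sparser and pointed the same way without passing the counting interval in any single class. All T cells gave 154 and 102 UMIs, 7.50 CPM with h219-LLG and 5.52 CPM in the control, a ratio of 1.36 (1.05 to 1.76), with a UMI in 3.93% and 3.03% of cells (0.767% and 0.527% thinned). As a mean per cell the ratio was 1.15 (0.893 to 1.5), an interval that includes 1. The ratio was over 1 in 7 of 8 classes, with regulatory T cells the exception at 0.703, where 1 control cell held 12 of 18 UMIs. B cells held 83 and 55 UMIs, 9.78 and 7.36 CPM, a ratio of 1.33 (0.934 to 1.90). Monocytes or macrophages held 2 and 0 UMIs.

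**Figure D2:**
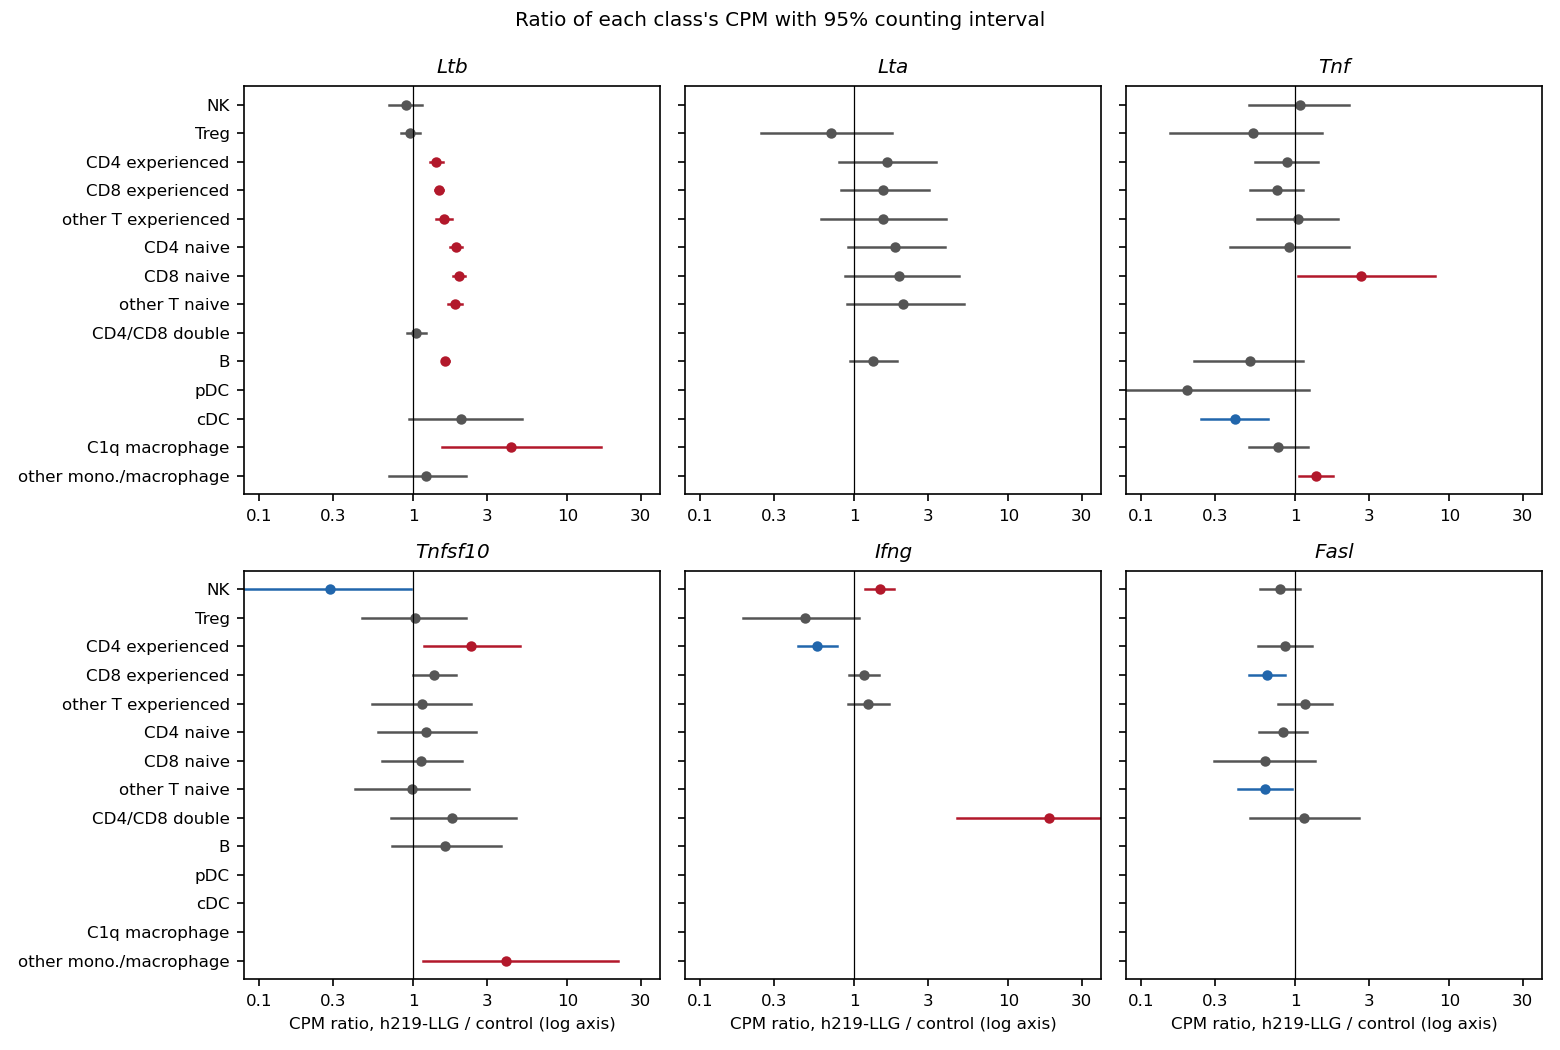
Ratio of the h219-LLG to the control level (horizontal log axis, 1 = equal) for 6 members (panels) in the gated classes (vertical axis) with at least 20 UMIs, with lines for the 95% counting interval, cut at 0.08 and 40; red marks intervals above 1, blue below 1, grey those that include 1. Ltb points lie mostly to the right of 1, Fasl points mostly to the left, and Ifng points on both sides.

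Ifng was higher with h219-LLG in NK cells and lower in CD4 experienced cells. Over all T cells the level was 22.8 CPM with h219-LLG and 26.3 CPM in the control, a ratio of 0.867 (0.762 to 0.986), and over all kept cells 0.804. These are sums over classes that differed in opposite directions and also in their share of cells. NK cells made up 1.32% of kept cells with h219-LLG and 2.71% in the control. NK cells, the classical source, held 335 CPM with h219-LLG and 229 CPM in the control, a ratio of 1.46 (1.18 to 1.81). A UMI was found in 50% and 44.8% of them (23.1% and 16.3% thinned). B cells, which should lack the gene, had it in 0.0889% and 0.179% of cells at median depths of 3504 and 4250.5 UMIs, against 4532 and 5519 in NK cells, so free RNA was low beside these shares. The highest NK cell held 12 UMIs in the h219-LLG library and 27 in the control. With doubled marker minimums, which leave 65 and 96 NK cells, the ratio was 1.04 (0.806 to 1.33), and with cells thinned to 1000 UMIs before gating it was 0.712 (0.282 to 1.67), and as a mean per cell, with the gate unchanged, 1.21 (0.972 to 1.49), so the NK difference depends on the gate and on the scaling.

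CD8 experienced cells gave 217 and 132 UMIs, 27.6 CPM with h219-LLG and 23.9 CPM in the control, a ratio of 1.16 (0.927 to 1.45), and a UMI was found in 8.19% and 7.41% of cells (2.51% and 1.95% thinned). The interval included 1, so a difference was not detectable at this depth with these cells; under the strict cell filter, which caps the genes per cell and the mitochondrial share more tightly, the ratio was 1.42 (1.06 to 1.91), and as a mean per cell 0.957 (0.768 to 1.2). The NK genes Eomes, Klre1 and Gzma summed to 96.4 CPM there with h219-LLG and 59.1 CPM in the control. Gzma held 48.9 and 20.7 CPM, though in 4.85% and 7.26% of cells. Eomes held 31.6 and 23.6 CPM, and Klre1 was close, at 15.9 and 14.9 CPM. The part of these genes in the Ifng level was not tested. T cells with both Cd4 and Cd8 UMIs held 32 and 2 Ifng UMIs, 41.8 and 2.29 CPM, a ratio of 18.3 (4.67 to 157) that rests on 13 cells against 2 and became 2.2 (1.2 to 4.16) when mixed barcodes were put in their dominant lineage. The same 3 NK genes summed to 49.7 and 14.9 CPM there.

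CD4 experienced cells, the gate that would hold T helper 1 cells, gave 68 and 163 Ifng UMIs, 45.2 CPM with h219-LLG and 78.2 CPM in the control, a ratio of 0.577 (0.428 to 0.771). The share of cells with a UMI was close, 11.2% and 12.3% (4.04% and 5.02% thinned), so the difference lay mostly in UMIs per positive cell; 1 control cell held 23 and the highest h219-LLG cell 7, and without both the ratio was 0.604. The sum of the 3 NK genes was lower here, at 8.63 and 26.9 CPM. Klre1 (1.99 and 7.20 CPM) and Gzma (3.98 and 18.7 CPM) were lower, but Eomes was higher (2.66 and 0.960 CPM). Regulatory T cells held 8 and 30 UMIs, a ratio of 0.482 (0.191 to 1.08), and experienced T cells with neither Cd4 nor Cd8 UMIs held 71.9 and 58.1 CPM, a ratio of 1.24 (0.914 to 1.67). Naive gates were almost empty of Ifng, with 3 and 1 UMIs in CD4 and 4 and 0 in CD8 naive cells.

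Fasl, which kills Fas-bearing targets, was lower with h219-LLG in most T cell gates. All T cells held 17.1 CPM with h219-LLG and 24.2 CPM in the control, a ratio of 0.709 (0.615 to 0.817), and 8.16% and 12.3% of cells had a UMI (1.74% and 2.42% thinned). NK cells had the highest level, 139 and 174 CPM, a ratio of 0.80 (0.589 to 1.08), with a UMI in 45.7% and 55.9% of cells (13.6% and 18.5% thinned). CD8 experienced cells held 13.8 CPM with h219-LLG and 21.0 CPM in the control, a ratio of 0.654 (0.499 to 0.858), with a UMI in 7.31% and 10.9% of cells (1.40% and 2.12% thinned); under the strict filter the interval included 1 (0.750, 0.535 to 1.05). The naive gates were lower as well, at 21.9 and 26.2 CPM in CD4 naive cells (0.835) and 4.39 and 6.89 CPM in CD8 naive cells (0.637), and only the naive gate with neither Cd4 nor Cd8 had an interval below 1, at 0.638 (0.424 to 0.951), which became 1.01 (0.277 to 4.05) in cells thinned before gating. Fasl was over 1 in 2 of 8 classes, and B cells held 1.06 and 0.401 CPM, with a UMI in 0.400% and 0.179% of cells.

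Tnfsf10, which encodes TRAIL, was slightly higher with h219-LLG over all T cells, at 12.5 and 9.95 CPM, a ratio of 1.25 (1.03 to 1.52) that became 1.06 (0.877 to 1.29) as a mean per cell and 1.18 (0.985 to 1.42) with mixed barcodes put in their dominant lineage. The ratio was over 1 in 9 of 11 classes. CD4 experienced cells gave 24 and 14 UMIs, 15.9 and 6.72 CPM, a ratio of 2.37 (1.18 to 4.96), with a UMI in 1.63% and 0.662% of cells after thinning; the strict filter gave 2.16 (0.928 to 5.20). Monocytes or macrophages held 27 and 3 UMIs, a ratio of 5.80 (1.78 to 29.9). NK cells, a known TRAIL source, went the other way with 3 and 20 UMIs, a ratio of 0.286 (0.0545 to 0.965). Without the highest cell of each library the NK interval included 1 (0.271, 0.0299 to 1.18). B cells held 2.36 and 1.47 CPM, with a UMI in 0.889% and 0.657% of cells.

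Tnf was a myeloid as much as a lymphocyte gene in these tumors. Monocytes or macrophages gave 240 UMIs with h219-LLG and 132 in the control, 55.5 and 47.4 CPM, a ratio of 1.17 (0.943 to 1.46), with a UMI in 16.9% and 17.7% of cells (3.70% and 3.41% thinned). Those without C1q genes held 60.7 and 44.8 CPM, a ratio of 1.35 (1.05 to 1.75) that became 0.830 when mixed barcodes were put in their dominant lineage, and C1q macrophages had a ratio of 0.777 (0.503 to 1.21). Conventional dendritic cells held 29.2 CPM with h219-LLG and 72.1 CPM in the control, a ratio of 0.406 (0.246 to 0.667), but 1 control cell held 17 of the 37 UMIs and without the highest cells the interval reached 1.02; with mixed barcodes in their dominant lineage the ratio was 0.882 (0.629 to 1.25). Among lymphocytes, NK cells held 27.9 and 25.9 CPM and CD8 experienced cells 7.13 and 9.42 CPM, and the ratio over all T cells was 0.797 (0.645 to 0.985). CD8 naive cells were the exception with 21 and 6 UMIs, a ratio of 2.68 (1.05 to 8.11) that became 1.31 (0.310 to 6.31) and 1.53 (0.745 to 3.33) with naive and experienced cells parted at 2 and 5 UMIs. Barcodes with markers of more than 1 lineage, set aside as mixed, held 36.4% of all Tnf UMIs with h219-LLG and 44.2% in the control, so a large share of this gene's molecules belongs to no class. B cells held 1.30 and 2.54 CPM, with a UMI in 0.489% and 1.14% of cells.

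Il2, the autocrine T cell growth factor, was rare: all T cells held 48 UMIs in each library, a ratio of 0.90 (0.591 to 1.37). CD4 experienced cells gave 11 UMIs in each library and experienced T cells with neither Cd4 nor Cd8 gave 16 and 13, while B cells gave 5 and 12. Differences inside that interval were not detectable at this depth. Csf2 gave 23 UMIs in 15 cells with h219-LLG and 28 UMIs in 9 cells in the control. Most of them lay in NK cells, which gave 12 and 19 UMIs (ratio 1.21, 0.533 to 2.61), of which 8 and 11 came from 1 cell in each library.

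Il17a and Il22 were made by a handful of cells. Il17a had 143 UMIs in 12 cells with h219-LLG and 118 UMIs in 7 cells in the control. Of these, 87 and 70 UMIs lay in T cells gated on Cd163l1, 5830411N06Rik and Sox13, genes of IL-17-producing gamma-delta T cells, where 5 and 2 cells held the gene and the highest held 45 and 69 UMIs. That gate had 11 and 6 cells, and of the T cell check genes Lck was found in 0 of the 11 h219-LLG cells, which by a limit of 3 cells allows up to 27.3% of such cells to have a UMI and does not bound expression, and in 16.7% of the 6 control cells, and Cd5 in 0 cells of both, so the name of the gate rests on the gate genes and Cd3 alone. Experienced T cells with neither Cd4 nor Cd8 held 42 and 6 UMIs, a ratio of 8.96 (3.79 to 25.8), with 39 of the 42 in 1 cell.

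Il22 had 340 UMIs in 14 cells with h219-LLG and 52 UMIs in 5 cells in the control. CD4 experienced cells gave 182 and 32 UMIs, a ratio of 7.87 (5.38 to 11.8), but 176 of the 182 UMIs came from 1 cell, and without the highest cell of each library the ratio was 0.691 (0.213 to 1.99). A mixed barcode held another 114 Il22 UMIs together with 7 of Il17a, and the gamma-delta-marker cell with 45 Il17a UMIs also held 19 of Il22. Over all T cells the ratio was 6.00 (4.15 to 8.94) and became 3.05 (1.61 to 6.16) without the highest cells, from 10 cells against 4. The near-identical gene Iltifb had 7 and 4 UMIs in 4 and 1 cells. Reads that match both copies may have been split between them or left out of the counts, so the Il22 values are uncertain to an unknown extent.

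**Figure D3:**
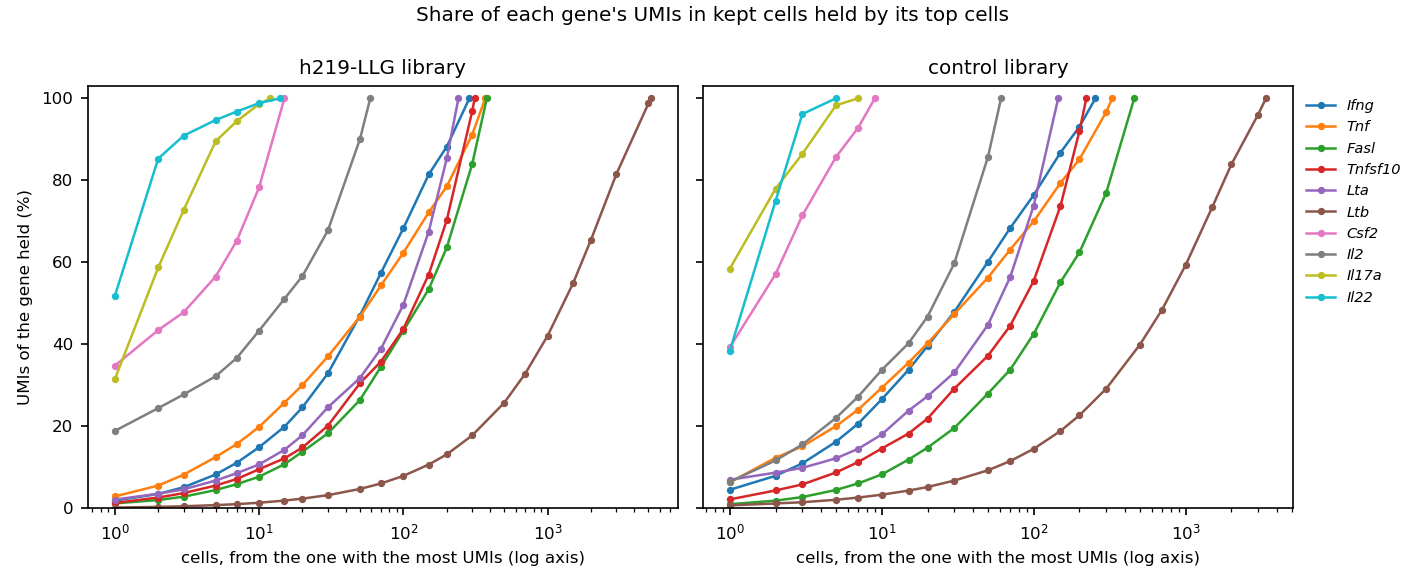
Cumulative percentage of each gene's UMIs (vertical axis) held by its highest cells (horizontal log axis, number of cells), h219-LLG and control drawn separately. Il22 and Il17a reach 50% within 1 or 2 cells, Ifng needs 56 and 33 cells, and Ltb needs 1303 and 737.

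How many cells carried each message differed widely among the members. Of cells with Ltb, 27.0% with h219-LLG and 35.7% in the control held a single UMI, whereas 84.3% and 85.6% of Tnfsf10-positive cells and 78.1% and 70.2% of Fasl-positive cells did. Ifng was more uneven, with 56 and 33 cells holding 50% of its 738 and 793 UMIs and top cells of 14 and 36 UMIs. Ifng and Fasl were found together more often than the product of their shares in CD8 experienced cells: 27 cells with h219-LLG against a product of 6.80, and 16 against 5.34 in the control. Fasl was found in 29.0% of Ifng-positive and 5.37% of Ifng-negative CD8 experienced cells with h219-LLG, at median depths of 6267 and 6455.5 UMIs. In NK cells the pair showed no such excess, with 21 cells against a product of 21.0 and 35 against 36.3. Ifng and Tnf shared 8 CD4 experienced cells against a product of 2.90 with h219-LLG, and 13 against 4.32 in the control.

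Interferon gamma targets were mostly higher with h219-LLG in monocytes or macrophages and mostly lower in T cells. The list was set by name, with earlier results of these data known. Which interferon or other signal set these levels was not tested. In monocytes or macrophages, 5 of 9 measured targets (at least 50 UMIs) were at least 1.5-fold higher with h219-LLG and 0 were as much lower, where 10.5% of all genes were that much higher and 3.72% lower; their median log2 ratio was 0.87, against 0.07 over all genes. Cxcl10, which draws in T cells through CXCR3, held 137 and 33.0 CPM there (ratio 4.15), and Ciita, the switch of MHC class II expression, 22.7 and 7.18 CPM (3.16). At the low end of these 9, Irf1 had a ratio of 1.2 and Cd274, which encodes PD-L1, 0.979. With targets counted from 20 UMIs, 6 of 12 were at least 1.5-fold higher and 2 were as much lower. Their median log2 ratio was then 0.72, against 0.09 over all genes. B cells had 0 of 9 targets past 1.5-fold, where 7.1% of all genes were higher and 3.75% lower, a count near those shares.

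T cells went the other way in the same list. In CD4 experienced cells 7 of 10 targets were at least 1.5-fold lower with h219-LLG and 0 higher, where 6.09% of all genes were that much lower and 7.57% higher, with a median log2 ratio of -0.73 against 0.04. In CD8 experienced cells 7 of 10 were lower and 0 higher, where 4.77% were lower and 8.1% higher, with a median of -0.77 against 0.04. Cxcl10 was lowest in both, at 0.303 in CD4 and 0.376 in CD8 experienced cells, and Irf1, an early interferon-response factor, held 163 and 283 CPM in CD8 experienced cells. The ratio was below 1 for all 10 targets measured in each of these gates. Naive cells differed in the same direction. In CD4 naive cells 9 of 10 targets were lower, where 6.44% of all genes were. In CD8 naive cells 6 of 9 were lower, where 5.77% of all genes were. In NK cells 1 target was higher (Gbp4, ratio 1.63) and 2 were lower (Cd274 0.324 and Cxcl10 0.393) of 6, where 6.32% of all genes were higher and 6.75% lower, and 0 of the 3 members measured there passed 1.5-fold.

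**Figure D4:**
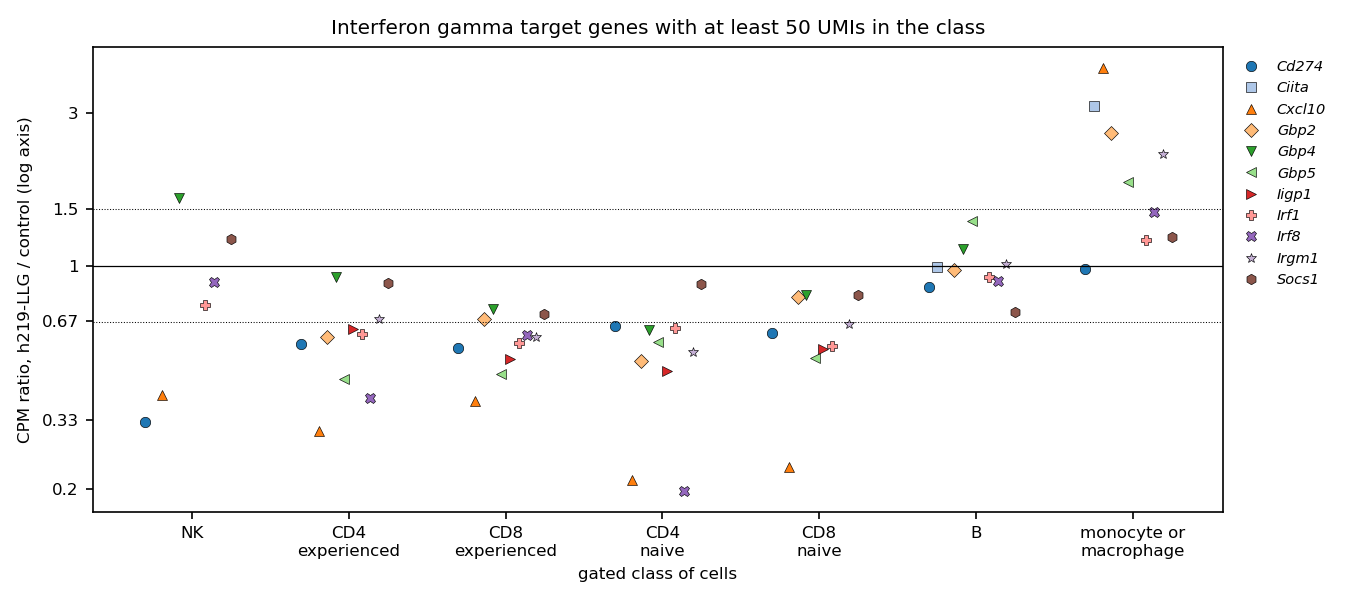
Ratio of the h219-LLG to the control CPM (vertical log axis) of interferon gamma targets with at least 50 UMIs, by gated class (horizontal axis); each symbol is 1 gene and dotted lines mark 1.5-fold in each direction. In monocytes or macrophages 5 of 9 targets lie at or above the upper line, and in CD4 and CD8 experienced cells 7 of 10 lie at or below the lower one.

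Several receptors for the 10 cytokines were lower with h219-LLG in T cells and within 1.5-fold in macrophages. In CD8 experienced cells 5 of 10 receptor genes were at least 1.5-fold lower and 1 higher, against 4.77% and 8.1% of all genes. Fas, the receptor of Fasl, held 36.3 and 85.2 CPM (ratio 0.426), Tnfrsf1b had a ratio of 0.480, and Il10rb, a chain of the IL-22 and IL-10 receptors, 1.51. In CD4 experienced cells 4 of 9 were lower and 1 higher, against 6.09% and 7.57% of all genes, with Il2ra at 0.366 and Fas at 0.492, and Il10rb at 1.70. NK cells had 1 of 7 in each direction, Il2ra at 2.09 and Tnfrsf1b at 0.385, where 6.32% of all genes were higher and 6.75% lower. Monocytes or macrophages had 0 of 12 past 1.5-fold, where 10.5% and 3.72% of all genes were, and ran from Il2rg at 0.722 to Ifngr2 at 1.21.

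Genes that control the 10 cytokines, from transcription factors to RNA-decay proteins, were counted in the same way, and the shares of all genes given above apply to each class. In CD8 experienced cells 6 of 19 were at least 1.5-fold lower and 0 higher (4.77% and 8.1% of all genes), with Irf4, which responds to T cell receptor signal strength, lowest at 0.288 and Rora at 0.441, and the IL-18 receptor chains Il18r1 (1.46) and Il18rap (1.38) at the top. CD4 experienced cells had 6 of 16 lower and 0 higher (6.09% and 7.57% of all genes), with Irf4 at 0.364 and Stat3 at 0.508. NK cells had 1 of 17 lower and 0 higher, with Rora at 0.612 and Il18r1 at 1.39, and monocytes or macrophages 1 of 13 in each direction, counts near the shares over all genes in these classes. Zfp36l1, which binds AU-rich sequences, had a ratio of 1.33 in NK cells, 1.30 in CD4 experienced cells and 1.55 in monocytes or macrophages, but 0.977 (0.912 to 1.05) in CD8 experienced cells. Of TNF and NF-kB targets, 2 of 8 were lower in CD4 and 2 of 8 in CD8 experienced cells, with Cxcl2 at 0.225 and Icam1 at 0.545, and 0 of 7 passed in NK cells. In monocytes or macrophages 1 of 10 was higher, Ccl2, a monocyte chemoattractant, at 2.68, and 10.5% of all genes were that much higher there. Of the other TNF superfamily ligands few were measured, and Cd40lg, the helper signal to B cells, stood out in CD4 naive cells with 63.9 and 22.1 CPM (2.89).

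Across the 14 classes with at least 20 cells in each library, the genes most like each member in level are given with the lower of the libraries' Pearson correlations of log2(CPM + 10) among 10202 genes. Ifng was most like Il18rap (0.91), followed by Tbx21 (0.91) and Ctla2a (0.90). Ltb was most like Gimap3 (0.96), with Cd2 and Birc2 next. Tnf was most like Mrpl33 (0.90), Fasl like Ppm1j (0.92), Tnfsf10 like Rgs16 (0.85) and Lta like Zc3h12d (0.87). The classes are shared by all genes and differ in depth and number of cells, so these are descriptions of pattern. Il17a and Il22, held by single cells, reached only 0.58 with Rab4a and 0.66 with Tnfsf11.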

How the data were processed

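scRNAseq used a droplet 3′ method with UMIs; per the submitters' processing notes the authors aligned reads to mm10 with Cell Ranger 5.0.0, and the deposited matrices hold raw UMI counts per gene and barcode. The cell filter asked for 200 detected genes, 500 UMIs and a mitochondrial share below 10%, and doublets were removed by a score against simulated doublets (0.8% per 1000 barcodes; 30 principal components, 2000 variable genes). Classes were gated on raw UMIs: T at least 2 Cd3 UMIs, B at least 3, myeloid at least 5, NK at least 2 of Ncr1 and Klrb1c with at most 1 Cd3 UMI, experienced at least 3 UMIs of 8 effector genes, naive at least 1 UMI of naive-cell markers such as Ccr7 and Lef1. The CD8 experienced gate was kept whole, and results that need 1 gene of the gates or 1 gene of the target list are not reported here. Trdc, planned for the gamma-delta gate, was not analysed here, and Cd163l1, 5830411N06Rik and Sox13 (at least 2 UMIs) took its place. UMIs count molecules from the 3′ end, so levels were not divided by length. Level intervals are exact Poisson, shares exact Clopper-Pearson, and ratios come from the exact binomial split of UMIs, all at 95%. Ratios were given from 20 UMIs over both libraries together and 20 cells in each library. List genes were given from 50 UMIs over both libraries, with 1.5-fold as the limit for counting a gene. All members were named, and other genes mostly came from the 2 highest and 2 lowest ratios of each list in 4 classes. Genes of likeness came from the 3 highest among genes with at least 200 UMIs. Not every gene under this rule is named. Among those left out are Gbp4 and Socs1, the highest interferon gamma targets in CD4 experienced (0.923 and 0.880) and CD8 experienced cells (0.730 and 0.704). Irf1 in CD8 experienced and Cd40lg in CD4 naive cells were chosen after their values were seen. Members and lists were chosen with earlier results of these data known. Alternatives were the strict cell filter, other gates, thinning to 1000 UMIs, means per cell, leaving out the highest cells and TMM scaling (edgeR 4.0.16, R 4.3.3). Scripts ran in Python 3.11.15 with numpy 2.4.6, scipy 1.17.1, scikit-learn 1.9.0 and matplotlib 3.10.9, and were tested on simulated data.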

Additional observations from a re-analysis of the deposited data

Results flagged for a closer look

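The level of Ifng differed between the libraries in opposite directions in different classes. Its h219-LLG to control ratio was 1.46 in NK cells and 18.3 in T cells with both Cd4 and Cd8 UMIs, but 0.577 in CD4 experienced cells, each with a counting interval that excludes 1. Tnf had ratios of 2.68 in CD8 naive cells and 1.35 in monocytes or macrophages without C1q genes, against 0.406 in conventional dendritic cells. Tnfsf10 had ratios of 2.37 in CD4 experienced cells and 4.03 in monocytes or macrophages without C1q genes, against 0.286 in NK cells. With 1 library per condition the difference between classes was not tested.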

How the results depend on the processing

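Of 347 values of 30 ratios recomputed under other settings, 304 stayed within the counting interval of the reported value and 332 kept its direction. These counts include values that could not move. Parting naive and experienced cells at other minimums left the NK, B, all T and monocyte or macrophage classes unchanged. A setting in which a library had no UMI of the gene gave no value. With cells thinned to 1000 UMIs before gating, which leaves 26 and 37 NK cells, Ifng turned to 0.712 in NK cells and was 0.779 in CD8 experienced cells, Il17a to 0.777 in all T cells and 0.917 in experienced T cells with neither Cd4 nor Cd8, Ltb to 0.847 in the latter and Fasl to 1.01 in naive T cells with neither; Ifng in CD4 experienced cells was 0.417, Il2 in all T cells 0.324, Il22 1.30, Tnf in monocytes or macrophages 2.06, and Ltb 1.48 in B, 1.57 in CD4 naive, 1.34 in CD8 naive and 1.04 in CD8 experienced cells. The thinned gates left 1 interferon gamma target higher in monocytes or macrophages, of 3 measured, and 0 lower in CD4 or CD8 experienced cells, where 0 were measured. Without the highest cell of each library, Il22 turned to 0.691 in CD4 experienced cells and was 3.05 in all T cells, where Il17a was 4.50. With mixed barcodes put in their dominant lineage, Tnf turned to 0.830 in monocytes or macrophages without C1q genes and was 0.656 in all of them, and Il22 was 9.18. The strict cell filter gave Csf2 4.44 in NK cells, Ifng 0.428 in CD4 experienced cells, Tnf 3.26, Il22 17.8 and 3 of 5 measured targets higher in monocytes or macrophages. Doubled marker minimums gave Ifng 1.04 (0.806 to 1.33) in 65 and 96 NK cells, Tnf 0.853 and Il22 8.97. As means per cell, Fasl in all T cells was 0.602 and Ltb was 1.36 in B, 1.25 in CD4 experienced, 1.21 in CD8 experienced, 1.57 in CD4 naive and 1.63 in CD8 naive cells. With the experienced gate at 5 UMIs, Ltb in CD8 experienced cells was 1.35 and 4 of 9 targets were lower in CD4 experienced cells. TMM scaling shifts all ratios of a class by the log2 ratio of the libraries' factors. Among the classes scaled, this was over 0.1 only in C1q macrophages (0.17). The cause of these shifts was not tested. No paired analysis was possible because each condition has 1 library.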
